A study of Homo sapiens with 12 samples.

Results

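Cells of the human embryonic stem cell line H9, an established line, were compared between day 19 and day 7 of differentiation toward hepatocytes with 30 nM T4 present. The comparison took the 4 libraries labelled T4 of 12 in the series, 2 at day 19 and 2 at day 7, and each library was a measurement of total RNA by sequencing. T4 is thyroxine, the main hormone released by the thyroid, and carries 1 iodine atom more than T3 (triiodothyronine). The other libraries were 30 nM T3 at day 19 and day 7 and, as controls, 0.1% DMSO at day 19 and day 7, with 2 libraries in each group. Per the labels, day 19 cells were hepatocytes and day 7 cells hepatoblasts, the bipotent progenitors of the fetal liver. All 12 libraries came from this 1 line, so no other line or donor stands behind these values. Separate cultures for the 2 libraries of a group are not stated, and p-values then reflect the spread between libraries alone, which can be technical. The labels do not give when T4 was added, and they state a share of DMSO for the control cells alone.

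Thyroid hormones act through the nuclear receptors THRA and THRB, which bind DNA with RXR partners and change transcription when T3 is bound. T4 binds these receptors more weakly and is converted to T3 by the deiodinase enzymes DIO1 and DIO2, while DIO3 inactivates both hormones. In hepatic differentiation, pluripotent cells pass through definitive endoderm to hepatoblasts, which express AFP, and then toward hepatocytes, which secrete albumin and other plasma proteins and carry the enzymes of the urea cycle, of glucose and lipid metabolism and of drug metabolism.

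Levels are counts per 1000000 counts (CPM) after scaling of libraries by edgeR's TMM factors, and a course means the log2 fold change of day 19 over day 7. A difference between courses is the log2 fold change with T4 minus that in DMSO or with T3, and a gene is said to have a higher or lower value in the T4 course where that difference was called. A gene was called higher or lower at an adjusted p of at most 0.05 by edgeR's quasi-likelihood test with Benjamini-Hochberg adjustment over all 18101 genes tested, and every adjusted p below comes from that test. Totals were 18363549 to 19306181 counts per library. The scaling matters for small changes: without scaling factors the median of all genes in the T4 course moved by -0.246, and that of the difference between the T4 and DMSO courses by 0.157. The DMSO course thus moved down further than the T4 course. DMSO medians printed below are with scaling factors, also where a T4 value without them follows. Of the genes named below as not called with T4, CHAC1, PSAT1, CPS1, KRT19, PYGL, RPS19, SCD, SDHD, SLC22A7 and THRA were called lower at day 19 without scaling factors. Bulk RNA cannot tell fewer cells of a type from less RNA per cell, which holds for every result below. The labels do not say whether reads were counted by strand, so levels of genes that overlap another gene, among them IGF2, KRT18, HNF4A, THRA, THRB, APOA1 and TIMP3, may include reads of the neighbour.

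With T4 present, 13015 genes were called between day 19 and day 7, which is 71.9% of the genes tested. Of these, 6429 were higher at day 19 (35.5% of genes tested) and 6586 lower (36.4%), and 49.4% of the calls were thus higher, against 37.3% without scaling factors. The change was at least 2-fold for 3369 of the higher genes (18.6% of genes tested) and 2611 of the lower ones (14.4%). Libraries of a day did not overlap those of the other day for 15548 genes, 85.9% of those tested. The like share between T4 and DMSO or T3 at the same day was not counted. Statements below that such libraries lie apart describe the printed values and are no test. The median log2 fold change over all genes was -0.03, and counts of list members below are to be read against these shares.

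Most of the course seen in DMSO was also seen with T4, and the T4 and DMSO courses share no library. The DMSO course had 13112 calls (72.4% of genes tested), 6801 higher (37.6%) and 6311 lower (34.9%), and 81.4% of them were called in the same direction in the T4 course. Among the 3572 genes called at least 2-fold higher in the DMSO course (19.7%), 3101 (86.8%) were called higher with T4, 57 were called lower and 414 were not called. The 2499 genes called at least 2-fold lower in DMSO (13.8%) included 2215 (88.6%) that were called lower with T4 and 11 called higher. Read from the other side, 3106 of the 3369 genes at least 2-fold higher in the T4 course (92.2%) were called higher in DMSO, and 2246 of the 2611 genes at least 2-fold lower (86.0%) were called lower in DMSO. The size of the change differed for many genes. The test of the difference between the T4 and DMSO courses called 5018 genes (27.7%), 2250 with a higher value in the T4 course (12.4%) and 2768 with a lower one (15.3%). Without scaling factors this split was 3920 higher and 1831 lower. Of the 3572 genes, 790 rose in both courses and by less with T4, and 507 had a higher value with T4. Choosing genes by their size in DMSO favours smaller values with T4. Of the 3369 genes chosen by their size with T4, 802 rose in both courses and by less in DMSO, and 456 by more. Over all genes called higher in both courses, whatever the size, 1011 had a lower value with T4 and 1011 a higher one. Between T4 and DMSO at the same day, 7753 genes were called at day 19 (42.8%) and 1162 at day 7 (6.42%).

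**Figure D1:**
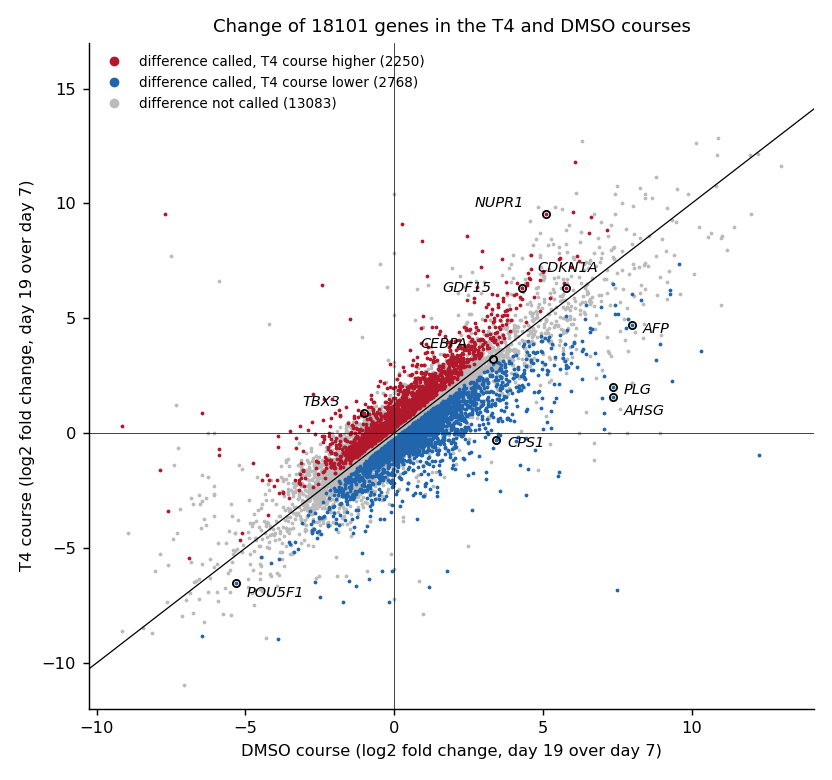
Log2 fold change of day 19 over day 7 for each of 18101 genes in the T4 course (vertical axis) and the DMSO course (horizontal axis), with the line of equal change. Red and blue points are the 2250 and 2768 genes whose courses differed in the test. AFP, PLG, AHSG and CPS1 lie far below the line, although AFP, PLG and AHSG were above 0 in both courses.

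The 10 genes that rose furthest with T4 were at or near 0 at day 7. LCT, encoding the intestinal brush border enzyme lactase, was at 547 and 744 CPM at day 19 and 0.246 and 0.146 CPM at day 7. Its T4 course was 11.64 (adjusted p = 3.28e-14), a size that rests on few day 7 counts. HSD3B1, an enzyme of steroid hormone synthesis that is abundant in the placenta, was at 205 and 189 CPM at day 19 and 0 and 0.0488 CPM at day 7 (adjusted p = 1.59e-14). PRR9 was at 55.2 and 53.3 CPM at day 19 against 0 and 0.0488 CPM at day 7. All 3 were high at day 19 and all but absent at day 7. The rule that chose these genes required libraries of the days not to overlap. The other genes of this set were at 0 in both day 7 libraries, so their rise is a lower bound against a floor of 3 counts over the group. In transcripts of their lengths 1 count is worth at least 0.0133 FPKM, above the 0.01 FPKM from which the files list transcripts. LGALS16, a placental galectin, reached 49.8 and 48 CPM at day 19, at least 666-fold higher. The brush border protease gene MEP1A was at least 405-fold higher, the macrophage elastase gene MMP12 at least 405-fold, the somatostatin gene SST at least 327-fold and the organic anion transporter gene SLC22A11 at least 206-fold. UGT1A1, which conjugates bilirubin, was at least 605-fold higher, although its reads cannot be separated with certainty from other genes of the UGT1A cluster that share its exons. Each of these genes rose in the DMSO course too.

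Among the 10 genes that fell furthest with T4 were stem cell factors and genes of the nervous system. POU5F1 (OCT4), the core factor of pluripotency, fell to 3.54 and 5.29 CPM at day 19, against 403 and 408 CPM at day 7 (log2 fold change -6.52, adjusted p = 1.36e-15). SLC7A3, a cationic amino acid transporter, fell to 1.03 and 0.966 CPM at day 19, against 163 and 168 CPM at day 7, and the pluripotency regulator gene ZSCAN10 to 0.399 and 0.114 CPM, against 43.8 and 39.8 CPM. The stem cell gene UTF1 fell to 0 and 0.227 CPM, against 10.6 and 11.3 CPM at day 7. These genes were lower in both day 19 libraries than in either day 7 library, which the rule that chose them required. VRTN, which acts in development of the vertebrae, had a log2 fold change of -6.92 and the forebrain factor gene ZIC2 one of -6.42. The neuronal catenin gene CTNNA2 had a log2 fold change of -6.75. LHFPL4, which acts at inhibitory synapses, was at 0.0571 and 0.114 CPM at day 19 and 11.7 and 11.3 CPM at day 7. CAMKV, a pseudokinase gene of neurons, was at 0 in both day 19 libraries and at 14 and 12.5 CPM at day 7. All 10 fell in the DMSO course too.

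The 8 genes with the most positive differences between the T4 and DMSO courses were SST, CHI3L1, NUPR1, NPB, PLAAT4, CGB8, SMOC1 and SERPINB12. NUPR1, a stress-induced chromatin protein, reached 139 and 124 CPM at day 19 with T4, against 0.295 and 0.0488 CPM at day 7, and 7.33 and 8.2 CPM at day 19 in DMSO, against 0.241 and 0.192 CPM (difference 4.41, SE 0.89, adjusted p = 0.00188). SMOC1, a matrix protein that blocks BMP signals, was at 76.8 and 76.2 CPM at day 19 with T4, against 1.03 and 0.829 CPM at day 7, and 13.3 and 14.9 CPM at day 19 in DMSO (difference 3.57). NPB, a neuropeptide, was at 48.1 and 43.5 CPM at day 19 with T4, against 0.197 and 0.39 CPM at day 7, and 6.72 and 7.17 CPM at day 19 in DMSO. In each of these the day 19 libraries with T4 were all above those in DMSO. The rule that chose genes by this difference required courses that do not overlap for any pairing of libraries. Such separation is thus no added support. SERPINB12 reached 12.8 and 17.5 CPM with T4 and 2.6 and 1.4 CPM in DMSO, and the chitinase-like gene CHI3L1 reached 26.5 and 24.4 CPM with T4 and 3.63 and 3.46 CPM in DMSO. PLAAT4, an enzyme of phospholipids, reached 35.6 and 33 CPM with T4 and 4.06 and 4.37 CPM in DMSO, and its difference of 3.97 was not called without the second DMSO library of day 7 (adjusted p = 0.139).

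The 8 most negative differences were those of AHSG, PLG, C6, GLYAT, SULT1A3, RN7SL1, RN7SL2 and SLC22A7. SLC22A7, an organic anion transporter gene of the liver, was at 6.16 and 6.02 CPM at day 19 with T4 and 7.52 and 6.68 CPM at day 7, not called. In DMSO SLC22A7 was at 164 and 167 CPM at day 19 and 8.28 and 7.07 CPM at day 7. GLYAT, which conjugates glycine in liver, was at 0.457 and 0.625 CPM at day 19 with T4 and 10.4 and 14.3 CPM in DMSO. AHSG, PLG, C6, GLYAT and SLC22A7 are liver genes. Their day 19 libraries with T4 were all below those in DMSO, a separation that the same rule favoured. In the others, libraries of 1 group lay far apart. SULT1A3, with a near-identical copy, was at 0.0571 and 12.3 CPM at day 19 and 13.6 and 10.1 CPM at day 7 with T4. In DMSO SULT1A3 was at 23 and 42.5 CPM at day 19 and 0 and 0 CPM at day 7. RN7SL1, a small cytoplasmic RNA, was at 1.94 and 2.84 CPM at day 19 with T4 and 81.2 and 3.28 CPM in DMSO, and its copy RN7SL2 at 2.68 and 4.04 CPM with T4 and 146 and 7.59 CPM in DMSO. Without the first DMSO library of day 19 the differences of RN7SL1 and RN7SL2 were -3.71 and -3.79, against -7.40 and -7.14 with it.

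The fall of pluripotency genes proceeded with T4. Of 22 tested 21 fell and the other was not called, with a median log2 fold change of -2.80, against 18 that fell and 2 that rose in the DMSO course at a median log2 fold change of -1.71 (-1.61 with members at 0 taken at their bound). SOX2 fell to 3.31 and 2.84 CPM at day 19 with T4, against 101 and 104 CPM at day 7. LIN28A, an RNA-binding protein that blocks maturation of let-7 microRNAs, fell to 49.2 and 45.4 CPM, against 1165 and 1192 CPM (log2 fold change -4.64, SE 0.062). The difference between courses was called for 12 of these genes, 9 with a lower value in the T4 course and 3 with a higher one. NANOG was at 1.08 and 1.08 CPM at day 19 and 7.91 and 9.27 CPM at day 7 with T4. In DMSO NANOG was at 1.39 and 0.85 CPM at day 19 and 1.64 and 2.12 CPM at day 7. The day 7 libraries of NANOG did not overlap between T4 and DMSO, and those of day 19 did. The stem cell RNA ESRG was at 17.5 and 19.1 CPM at day 19 and 249 and 255 CPM at day 7 with T4. In DMSO ESRG was at 20.7 and 15 CPM at day 19 and 58.1 and 53.3 CPM at day 7, with the same pattern of overlap.

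CRIPTO, a coreceptor for Nodal that is active in stem cells, had opposite courses. It fell to 40.9 and 47.6 CPM at day 19 with T4, against 57.1 and 60.5 CPM at day 7. In DMSO CRIPTO rose to 34.8 and 38.6 CPM at day 19, against 13.9 and 14.4 CPM at day 7 (difference -1.78, adjusted p = 4.73e-07). In the oncofetal list of RNA-binding and HMGA genes 6 of 8 fell and 2 rose at a median log2 fold change of -1.02 (DMSO median -0.84). HMGA1, a chromatin architecture protein, had a T4 course of -1.29 and a DMSO course of -1.72, and TRIM71, a partner of LIN28 in stem cells, courses of -1.67 and -1.03. Without the first DMSO library of day 19 the difference of TRIM71 was -0.42, against -0.64 with it.

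Definitive endoderm genes fell more often than they rose. Among 19 tested endoderm and foregut genes 10 fell and 5 rose with T4 at a median log2 fold change of -0.98, against 9 and 8 in DMSO at a median log2 fold change of -0.11. SOX17, the endoderm master regulator, fell to 11.4 and 10.9 CPM at day 19, against 79.4 and 77.6 CPM at day 7, with a difference between courses of 0.10 (95% interval -0.15 to 0.34) that was not called. FOXA2, a pioneer factor of endoderm, had a T4 course of -0.98 and a DMSO course of -1.18, and GATA4 courses of -0.83 and -0.43. GATA3, which marks trophectoderm and amnion as well as other lineages, rose to 697 and 679.7 CPM with T4, against 182 and 179 CPM at day 7, and by 0.47 on the log2 scale in DMSO (difference 1.46, adjusted p = 1.04e-06).

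The fall of cell cycle genes proceeded with T4. All 25 tested mitosis genes fell in the T4 course (median log2 fold change -2.41), as they did in DMSO (median log2 fold change -2.10), and 8 of them had a lower value in the T4 course. The mitotic kinase PLK1 fell to 13.7 and 14.6 CPM at day 19 with T4, against 102 and 98.9 CPM at day 7, and the checkpoint kinase BUB1 to 13.1 and 14.4 CPM, against 109 and 114 CPM. MKI67, the proliferation marker, was at 22.4 and 28.5 CPM at day 19 and 148 and 146 CPM at day 7 (log2 fold change -2.53). The cyclin genes CCNB2 and CCNA2 had T4 courses of -2.74 and -2.53, and every mitosis gene was thus called lower at day 19. Of 28 DNA replication genes 25 fell and 3 rose, at a median log2 fold change of -1.27 in the T4 course and -1.26 in the DMSO course, and 1 rose without scaling factors. MCM4 of the replication helicase had a T4 course of -1.48, and MCM7 of the same complex one of -1.36, against -1.89 in DMSO. The helicase subunit MCM3 and the origin protein ORC1 had courses whose differences were not called, at 0.01 (95% interval -0.15 to 0.17) and -0.14 (95% interval -0.46 to 0.17). CCNE1, the cyclin of the G1 to S transition, went the other way and rose to 122 and 117 CPM with T4, against 32.2 and 36 CPM at day 7, by more than in DMSO (difference 1.06, adjusted p = 7.73e-05).

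Among 19 p53 targets and cell cycle inhibitors 17 rose and 2 fell (median log2 fold change 2.002, against 1.74 in DMSO), and 7 had a higher value in the T4 course, or 11 without scaling factors. The 2 that fell became 1 without the second T4 library of day 19 or of day 7. CDKN1A, the p21 inhibitor of cyclin-dependent kinases, was at 1345 and 1216 CPM at day 19 with T4 and 16.6 and 15.5 CPM at day 7, for a T4 course of 6.32 (SE 0.08, adjusted p = 2.86e-16), against 5.77 in DMSO. GDF15, a secreted stress hormone of the TGF-beta family, was at 1033 and 913 CPM at day 19 with T4 and 12.6 and 11.9 CPM at day 7, with 207 and 229 CPM at day 19 in DMSO (difference 2.02, adjusted p = 2.79e-07). The day 19 libraries of GDF15 with T4 were all above those with DMSO. The inhibitor gene CDKN2B had a T4 course of 5.31 and the sestrin gene SESN2 of 1.24.

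**Figure D2:**
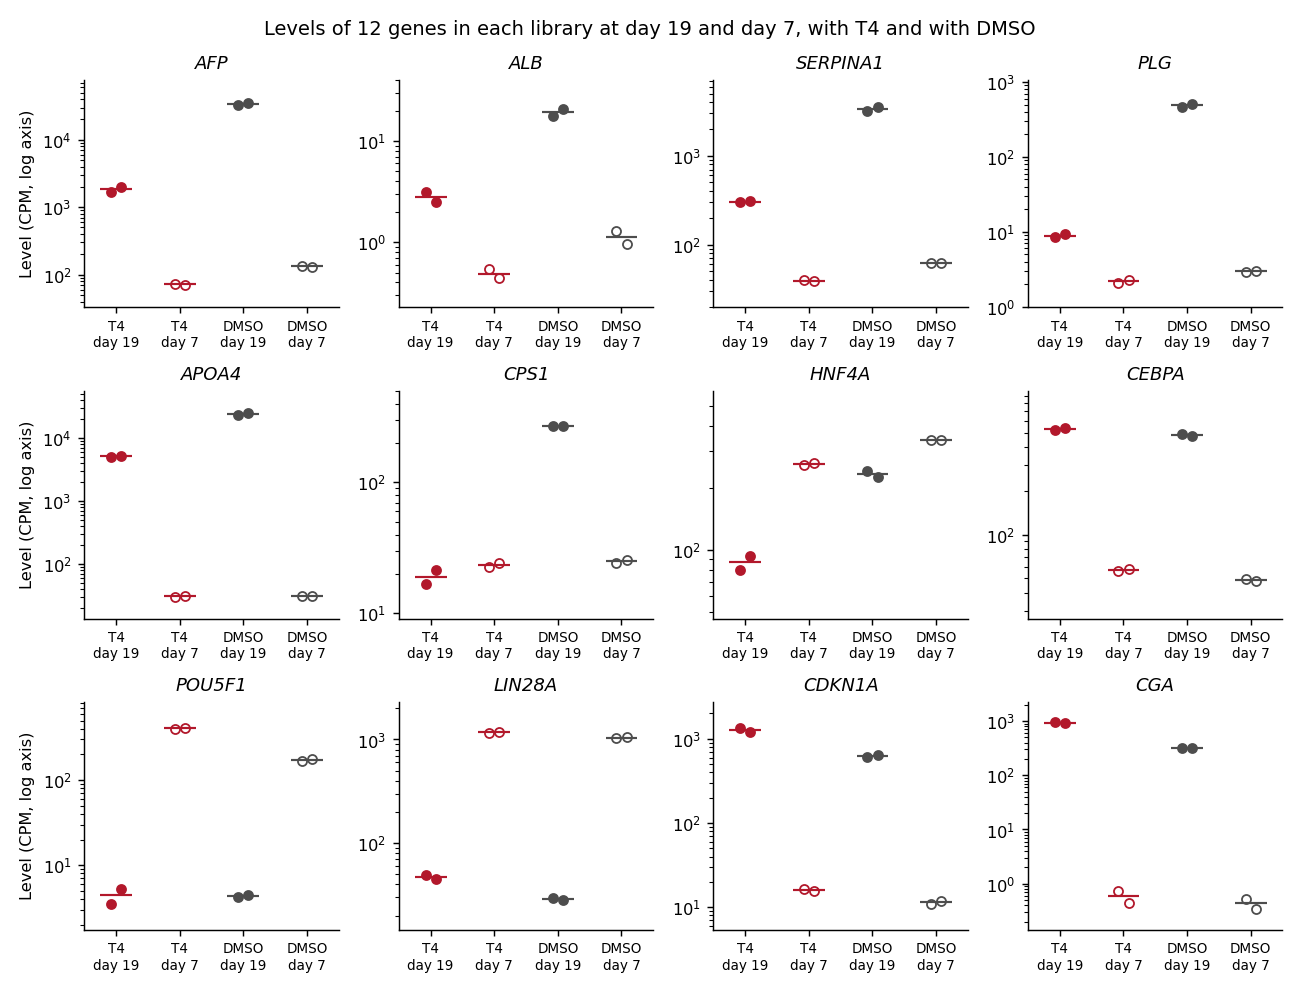
Level in CPM (log axis) of 12 genes in each library, with T4 at day 19 and day 7 and with DMSO at day 19 and day 7. Points are libraries and bars are means of 2. The liver genes AFP, SERPINA1 and PLG reach far lower day 19 levels with T4 than with DMSO, CPS1 was not called with T4, and CEBPA, POU5F1, CDKN1A and CGA moved in the same direction with both.

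AFP, ALB and PLG rose with T4 to levels below those in DMSO. AFP, a fetal plasma protein related to albumin (Entrez gene 174, chromosome 4, 73436221 to 73456174), rose to 1686 and 2023 CPM at day 19 with T4, against 72.4 and 71.3 CPM at day 7, for a T4 course of 4.69 (SE 0.15, adjusted p = 1.49e-12). In DMSO it was at 32931 and 35468 CPM at day 19 and 136 and 131 CPM at day 7, and the difference between courses was -3.31 (SE 0.19, adjusted p = 4.53e-08). ALB, encoding albumin (Entrez gene 213, chromosome 4, 73404287 to 73421482), was at 3.14 and 2.5 CPM at day 19 with T4 and 0.541 and 0.439 CPM at day 7 (log2 fold change 2.51, adjusted p = 3.53e-06), and at 17.8 and 20.8 CPM at day 19 and 1.3 and 0.962 CPM at day 7 in DMSO. Albumin is the defining product of hepatocytes, and its RNA reached at most 20.8 CPM in any of the 6 libraries labelled as hepatocytes. CYP3A4, the main drug oxidase of adult liver, was at 0.571 and 0.625 CPM at day 19 with T4 and 0.0983 and 0.0975 CPM at day 7. The difference of the ALB courses was -1.57 (adjusted p = 0.0152), and it was not called without the first T4 library of day 7 (-1.42, adjusted p = 0.115) or without the second DMSO library of day 7 (-1.38, adjusted p = 0.0544). PLG, encoding plasminogen (Entrez gene 5340, chromosome 6, 160702193 to 160754097), was at 8.45 and 9.32 CPM at day 19 with T4 and 2.06 and 2.29 CPM at day 7. In DMSO PLG was at 467 and 508 CPM at day 19 and 2.94 and 3.03 CPM at day 7. For AFP, ALB and PLG the day 19 libraries with T4 lay above every day 7 library and below every day 19 library with DMSO.

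The promoters of these genes are shown with the gene CGA, a placental gene that also rose in the T4 course, whose difference between courses was not called. Each sequence is the 250 bases before the annotated start in RefSeq (GRCh38.p14), 5′ to 3′ on the strand of the gene, AFP at chr4:73435971-73436220, ALB at chr4:73404037-73404286, PLG at chr6:160701943-160702192 (all plus strand) and CGA at chr6:87095107-87095356 (minus strand). Capitals mark the letters TATAAA, the TATA box, searched on both strands.
AFP: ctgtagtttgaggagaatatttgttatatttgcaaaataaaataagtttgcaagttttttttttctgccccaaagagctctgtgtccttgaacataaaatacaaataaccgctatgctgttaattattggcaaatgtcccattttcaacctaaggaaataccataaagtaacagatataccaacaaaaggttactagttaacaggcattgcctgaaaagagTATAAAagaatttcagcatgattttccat
ALB: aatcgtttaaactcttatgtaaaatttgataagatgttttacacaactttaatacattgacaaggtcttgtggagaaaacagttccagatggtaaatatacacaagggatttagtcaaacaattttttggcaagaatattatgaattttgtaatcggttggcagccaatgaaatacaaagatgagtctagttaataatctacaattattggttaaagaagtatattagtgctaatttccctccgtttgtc
PLG: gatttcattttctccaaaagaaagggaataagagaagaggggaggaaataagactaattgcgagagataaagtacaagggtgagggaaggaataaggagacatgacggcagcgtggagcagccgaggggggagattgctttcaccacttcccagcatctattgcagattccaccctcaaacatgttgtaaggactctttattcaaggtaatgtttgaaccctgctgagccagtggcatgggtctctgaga
CGA: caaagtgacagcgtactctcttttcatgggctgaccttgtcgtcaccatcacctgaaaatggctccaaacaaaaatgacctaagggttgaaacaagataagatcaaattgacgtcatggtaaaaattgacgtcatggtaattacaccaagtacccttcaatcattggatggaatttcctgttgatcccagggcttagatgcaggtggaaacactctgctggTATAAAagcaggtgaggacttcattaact

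TATAAA starts 29 bases before the start of AFP and 29 before that of CGA, and 10.7% of all 35116 promoters of the same length hold it on either strand. The direct repeats of AGGTCA known as DR1 (0.0171%) and DR4 (0.0142%) were not found in these 4 windows on either strand. DR4 is the classic thyroid hormone response element. Exact matches are so rare that their absence from 4 windows was likely beforehand. It does not show that these genes lack a response element. ALB and PLG held none of TATAAA, DR1 and DR4 in these windows. A search for sites of the liver factor HNF1 was planned but not run, so nothing is said of them.

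Most genes of secreted plasma proteins rose with T4 and reached lower values than in DMSO. Of 25 tested 21 rose and 2 fell in the T4 course at a median log2 fold change of 2.51 (2.45 with members at 0 taken at their bound), against 24 that rose and 1 that fell in the DMSO course at a median log2 fold change of 4.60. The difference was called for 17 of them, with a lower value in the T4 course for each. SERPINA1, encoding the protease inhibitor alpha-1-antitrypsin, rose to 302 and 307 CPM at day 19 with T4, against 39.4 and 39.2 CPM at day 7. In DMSO SERPINA1 was at 3157 and 3588 CPM at day 19 and 61.5 and 62.6 CPM at day 7 (difference -2.81, adjusted p = 6.01e-08). AHSG, encoding fetuin-A, was at 7.13 and 6.37 CPM at day 19 with T4 and 1.67 and 2.88 CPM at day 7. In DMSO AHSG was at 493 and 570.4 CPM at day 19 and 3.42 and 3.08 CPM at day 7. TTR, the plasma carrier of thyroxine, rose by 0.64 on the log2 scale with T4 and by 2.33 in DMSO. AGT, the precursor of angiotensin, fell to 43.7 and 46.8 CPM with T4, against 59.5 and 57.9 CPM at day 7. In DMSO AGT rose to 422 and 449.7 CPM at day 19, against 77.3 and 79.4 CPM at day 7. FGA, the fibrinogen alpha chain, was among the members whose difference was not called: it rose to 2202 and 2357 CPM with T4, against 233 and 237 CPM at day 7, by 3.28 on the log2 scale and by 3.14 in DMSO (difference 0.14, 95% interval -0.17 to 0.45, adjusted p = 0.522).

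Coagulation and fibrinolysis genes rose in 14 of 22 cases and fell in 2 (median log2 fold change 1.39, or 1.29 with members at 0 at their bound, DMSO 3.40), and 15 had a lower value in the T4 course. The fibrinogen gamma chain gene FGG rose by 4.26 on the log2 scale with T4 and 5.58 in DMSO. The protein S gene PROS1 was at 29.6 and 32.6 CPM at day 19 with T4 and 28.2 and 29.2 CPM at day 7, which was not called. In the complement list 14 of 17 rose and the other 3 were not called (median log2 fold change 1.81, against 3.31 in DMSO). The difference was lower in the T4 course for 8 of the 17 and higher for 1, which was not called with DESeq2. CFB of the alternative pathway, the terminal component gene C8B and the lectin gene MBL2 had T4 courses of 3.03, 6.27 and 5.63, and the difference was not called for C8B and MBL2. The central component C3 was at 11.9 and 10.7 CPM at day 19 with T4 and 2.7 and 2.44 CPM at day 7, against 68.9 and 64.9 CPM at day 19 and 1.54 and 1.68 CPM at day 7 in DMSO (difference -3.24, adjusted p = 1.03e-07). C5, of the terminal pathway, had a difference of -2.64. C6 was at 1.54 and 1.53 CPM at day 19 with T4 and 0.0983 and 0.0975 CPM at day 7, against 15.1 and 14.9 CPM at day 19 and 0 and 0.0481 CPM at day 7 in DMSO.

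Apolipoprotein genes rose in 10 of 14 cases and fell in 1 (median log2 fold change 1.40, against 2.83 in DMSO), and 11 had a lower value in the T4 course. Without scaling factors 9 rose and 2 fell, and leaving out the 10 most abundant genes of any library, which left 10 of this list tested, the median was 2.42 and 7 had a lower value. APOA4, carried on chylomicrons and high density lipoprotein, rose to 5001 and 5249.8 CPM at day 19 with T4, against 30.9 and 32 CPM at day 7, and to 23024 and 24748 CPM in DMSO. APOC3, an inhibitor of lipoprotein lipase, rose to 375 and 393 CPM with T4, against 4.91 and 5.36 CPM at day 7. In DMSO APOC3 was at 3426 and 3994 CPM at day 19 and 5.49 and 6.59 CPM at day 7. APOC2, the activator of the same lipase, had courses of 6.04 and 9.28. APOA1, the main protein of high density lipoprotein, was at 2609 and 2775 CPM at day 19 with T4 and 1780.4 and 1709 CPM at day 7. In DMSO APOA1 was at 15073 and 16375 CPM at day 19 and 1981 and 2041 CPM at day 7. The difference for APOA1, which overlaps an antisense gene, was -2.34 (adjusted p = 2.59e-08). For APOA4, APOC3 and APOA1 both day 19 libraries with T4 lay above day 7 and below both DMSO libraries of day 19.

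**Figure D3:**
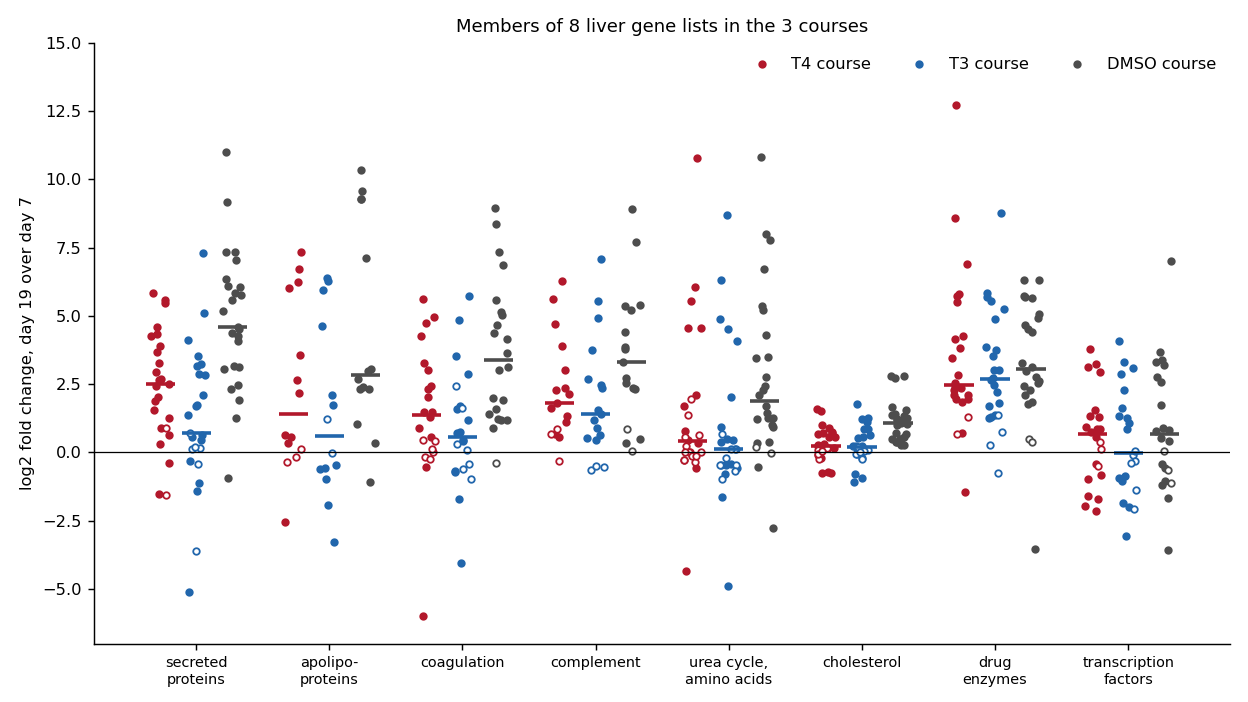
Log2 fold change of day 19 over day 7 for each tested member of 8 liver gene lists in the T4, T3 and DMSO courses, with filled points for called changes, open points for changes not called and bars for medians. The medians of the secreted protein, apolipoprotein, coagulation and complement lists lie above 0 with T4 and below those with DMSO.

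Transcription factors of the liver moved in both directions. Of 22 tested 12 rose and 7 fell with T4 (median log2 fold change 0.66, against 0.66 in DMSO), 3 with a higher and 8 with a lower value in the T4 course. Without scaling factors 10 rose and 7 fell at a median of 0.416, and 5 had a higher and 7 a lower value in the T4 course. CEBPA, which drives hepatocyte metabolism genes, rose to 525 and 537 CPM at day 19 with T4, against 56 and 57.8 CPM at day 7, and by 3.32 in DMSO (difference -0.10, 95% interval -0.30 to 0.11, adjusted p = 0.505). HNF4A, the nuclear receptor at the centre of the hepatocyte network, fell to 79.9 and 93.8 CPM with T4, against 257 and 264 CPM at day 7. In DMSO HNF4A was at 241 and 225 CPM at day 19 and 341 and 342 CPM at day 7 (difference -1.03, adjusted p = 2.2e-05). PPARA, the fatty acid receptor, rose by 1.32 on the log2 scale with T4 and 2.76 in DMSO, and CREB3L3, a factor of the acute phase and lipid response, by 3.12 and 3.67. CEBPB rose by more with T4, 3.78 against 2.60. TBX3, a hepatoblast factor, moved in opposite directions. It rose to 243 and 258 CPM at day 19 with T4, against 139 and 135 CPM at day 7. In DMSO TBX3 was at 103 and 92 CPM at day 19 and 201 and 198 CPM at day 7.

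In the fetal liver and hepatoblast list 12 of 20 rose and 5 fell (3 without the second T4 library of day 7; median log2 fold change 0.75, against 1.14 in DMSO). IGF2, the fetal growth factor, rose to 13164 and 14038 CPM at day 19 with T4, against 149 and 144 CPM at day 7, for a T4 course of 6.53, against 6.27 in DMSO. It overlaps INS-IGF2 and IGF2-AS, and the difference between courses was 0.26 (95% interval 0.05 to 0.47, adjusted p = 0.0615), called without the first T4 library of day 19 (0.31, adjusted p = 0.0476) or the second DMSO library of day 19 (0.31, adjusted p = 0.0407). The aminopeptidase gene ANPEP rose by 4.36 on the log2 scale with T4 and 4.57 in DMSO, and the keratin gene KRT18, which overlaps KRT8, by 2.23 and 0.86 (difference 1.37, adjusted p = 1.74e-07).

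Many genes of liver metabolism had a lower value in the T4 course. Urea cycle and amino acid catabolism genes rose in 10 of 26 cases and fell in 3 with T4 (median log2 fold change 0.41), against 22 and 2 in DMSO (median log2 fold change 1.89), and 16 had a lower value in the T4 course and 1 a higher one. Without scaling factors 9 of these genes rose and 6 fell with T4, at a median of 0.161. CPS1, which makes the first committed step of the urea cycle, was at 16.8 and 21.4 CPM at day 19 with T4 and 22.7 and 24 CPM at day 7, not called in the T4 course (adjusted p = 0.0729), and at 272 and 269.6 CPM at day 19 and 24.4 and 25.5 CPM at day 7 in DMSO (difference -3.73, SE 0.18, adjusted p = 1.14e-08). Without the second T4 library of day 19 the T4 course of CPS1 was -0.48 (adjusted p = 0.0187), against -0.29 with it. ASS1, a later enzyme of the cycle, fell to 38.3 and 36.5 CPM with T4, against 56.9 and 53.1 CPM at day 7. In DMSO ASS1 was at 125 and 141 CPM at day 19 and 55.3 and 54.4 CPM at day 7. HGD, of tyrosine breakdown, reached 52.2 and 56.2 CPM with T4, against 0 and 0.0488 CPM at day 7. MAT1A, which makes S-adenosylmethionine in adult liver, rose by 6.05 on the log2 scale. The hydroxyproline breakdown gene PRODH2 had a T4 course of -4.33.

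Gluconeogenesis genes rose in 9 of 13 cases and fell in 1 (median log2 fold change 2.12, against 2.61 in DMSO), and 2 fell without scaling factors or without the first T4 library of day 7. PCK1, the rate-limiting enzyme of glucose synthesis from lactate and amino acids, rose to 187 and 185 CPM at day 19 with T4, against 0.295 and 0.585 CPM at day 7, and to 519.8 and 508 CPM in DMSO. FBP1 of the same pathway had a T4 course of 3.59 and a DMSO course of 6.31 (difference -2.71, adjusted p = 5.73e-06). The glycogen phosphorylase gene PYGL was at 67.9 and 68.1 CPM at day 19 with T4 and 65.3 and 63.4 CPM at day 7, not called. Of 19 glycolysis genes 14 fell and 5 rose (median log2 fold change -0.66, against -0.46 in DMSO), with 12 lower and 4 higher in the T4 course. The 5 that rose were 3 without scaling factors. The lactate dehydrogenase gene LDHA fell to 169.9 and 158 CPM at day 19 with T4, against 995 and 1048 CPM at day 7. In DMSO LDHA was at 319 and 351 CPM at day 19 and 826 and 813 CPM at day 7. ENO1 had a T4 course of -1.46, and PFKP, the platelet form of phosphofructokinase, rose by 1.69 on the log2 scale. ALDOC, the brain aldolase, had courses of -1.42 with T4 and 0.98 in DMSO, both called.

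Most cholesterol synthesis and uptake genes had a lower value in the T4 course. With T4 15 of 25 rose and 4 fell (2 without the first T4 library of day 7) at a median log2 fold change of 0.23, against 25 that rose in DMSO at a median log2 fold change of 1.09. Without scaling factors 10 rose and 9 fell with T4, at a median of -0.017. The difference was called for 23 of the 25, each with a lower value in the T4 course, and for 18 without scaling factors. MSMO1, a sterol oxidase, rose to 217 and 231 CPM with T4, against 121 and 119.9 CPM at day 7. In DMSO MSMO1 was at 923 and 1027 CPM at day 19 and 136 and 143 CPM at day 7. SQLE, the squalene oxidase, rose by 0.99 on the log2 scale with T4 and 1.25 in DMSO. The SREBP regulator gene INSIG1 rose by 1.61 on the log2 scale with T4 and 2.71 in DMSO, and CYP51A1, which overlaps an antisense gene, by 1.502 and 2.82. DHCR7 had courses of 0.16 and 1.09. The T4 course of DHCR7 was -0.08 without scaling factors, and it was not called without the second T4 library of day 19 (0.12, adjusted p = 0.0744) or of day 7 (0.15, adjusted p = 0.0679).

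Of 22 fatty acid and triglyceride synthesis genes 12 rose and 6 fell (median log2 fold change 0.44, against 1.15 in DMSO), and 13 had a lower and 2 a higher value in the T4 course. The median was 0.282 without the second T4 library of day 19, and without scaling factors it was 0.195, with 11 higher and 10 lower at day 19. DGAT2, which makes triglycerides, was at 36.8 and 43.3 CPM at day 19 with T4 and 25.8 and 24.9 CPM at day 7. In DMSO DGAT2 was at 419 and 417 CPM at day 19 and 30.8 and 29.9 CPM at day 7 (difference -3.12, adjusted p = 1.09e-08). AGPAT2, of the same route, rose by 1.73 on the log2 scale with T4 and 2.42 in DMSO. The desaturase gene SCD was at 418 and 469 CPM at day 19 with T4 and 476 and 467 CPM at day 7, which was not called, and had a DMSO course of 1.26. Without the second T4 library of day 19 the T4 course of SCD was -0.17 (adjusted p = 0.0332). PLIN2, the coat of lipid droplets, rose to 1159 and 1231 CPM with T4, against 76.1 and 77.2 CPM at day 7, and FABP1, the liver fatty acid binding protein, to 249.96 and 261 CPM, against 6.58 and 6.39 CPM, both by more than in DMSO (differences 0.38 and 1.57). Fatty acid oxidation genes rose in 13 of 21 cases and fell in 2 (median log2 fold change 0.68, against 1.25 in DMSO), with 12 lower and 3 higher in the T4 course. The 3 higher differences became 1 without the second T4 library of day 19 or the first of day 7, and without scaling factors 4 genes fell and the median of the T4 course was 0.433. The kinase gene PDK4, which spares glucose, rose by 5.03 on the log2 scale with T4, the lipase inhibitor gene ANGPTL4 by 3.08 and the carnitine transferase gene CPT1A by 3.34. ACAA1 and HADH of beta-oxidation had T4 courses of 0.68 and 0.18, against 1.87 and 1.59 in DMSO. HADH was not called with T4 (adjusted p = 0.0558) and was without the second T4 library of day 19 (0.28, adjusted p = 0.0063).

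Bile acid genes rose in 9 of 16 cases and fell in 5 (median log2 fold change 0.82, against 2.36 in DMSO), with 9 lower and 1 higher in the T4 course. SLC10A1, the bile acid importer of hepatocytes, rose to 34.5 and 47.1 CPM with T4, against 2.06 and 1.32 CPM at day 7, and to 72.1 and 74.4 CPM in DMSO. SLC51B, a basolateral bile acid exporter, rose by 5.54 on the log2 scale with T4 and 5.95 in DMSO. ABCB4, the phosphatidylcholine exporter, rose by 3.83 on the log2 scale with T4 and 1.89 in DMSO. ABCC2, a canalicular exporter, rose by 0.80 on the log2 scale with T4 and 2.07 in DMSO. The sterol exporter gene ABCG8 had opposite courses of -1.74 with T4 and 2.65 in DMSO. In the drug metabolism list 21 of 24 rose and 1 fell at a median log2 fold change of 2.46, against 3.05 in DMSO, and the difference was called for 6. The 1 that fell was not called without either T4 library of day 19 or without the first of day 7. CYP1A1, a target of the aryl hydrocarbon receptor, rose to 534 and 544 CPM with T4, a log2 fold change of 5.79, and to 565 and 568 CPM in DMSO (difference 0.04, 95% interval -0.19 to 0.28). The steroid sulfotransferase gene SULT2A1 rose by 5.49 on the log2 scale with T4 and 5.67 in DMSO, and GSTA2, whose reads may be shared with its near copy GSTA1, by 4.28 and 4.67. The epoxide hydrolase gene EPHX1 rose by 2.09 on the log2 scale with T4 and 2.98 in DMSO. The share of drug metabolism genes with a called difference, 6 of 24, was near the 27.7% of all genes. The 5 members with a lower value became 3 without the first T4 library of day 19, 2 without the second T4 library of day 7 and 3 without the first DMSO library of day 7.

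Genes of the thyroid hormone pathway changed along the course. Of 21 receptor, transporter and deiodinase genes 12 rose and 4 fell (median log2 fold change 0.64, against 0.75 in DMSO), and 7 fell without scaling factors, at a median of 0.39. THRB, the main receptor of the liver, rose to 78.4 and 80.3 CPM at day 19 with T4, against 9.97 and 9.31 CPM at day 7, and overlaps antisense genes. THRA was at 18.1 and 20.1 CPM at day 19 and 21.3 and 21 CPM at day 7, not called, and overlaps NR1D1. The inactivating deiodinase DIO3, itself induced by thyroid hormone, rose to 590.5 and 625 CPM with T4, against 22.7 and 22.8 CPM at day 7. In DMSO DIO3 was at 190.1 and 159.5 CPM at day 19 and 11.7 and 14 CPM at day 7 (difference 0.97, adjusted p = 0.00074). The activating deiodinase DIO2 fell to 1.31 and 1.14 CPM with T4, against 22.3 and 22.3 CPM at day 7, and 2.91 and 2.55 CPM at day 19 in DMSO. The transporter gene SLC7A8 (LAT2) rose by 1.86 on the log2 scale with T4 and 0.42 in DMSO.

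Among 20 genes known to respond to thyroid hormone 15 rose with T4 and 2 fell (median log2 fold change 1.78, against 2.39 in DMSO), with 3 higher and 7 lower in the T4 course. Without scaling factors this split was 4 higher and 4 lower, and 4 genes fell with T4. KLF9, an early target of the receptor, rose to 49.8 and 60.6 CPM with T4, against 9.19 and 8.68 CPM at day 7, and by 2.57 in DMSO (difference 0.05, 95% interval -0.31 to 0.41). HR, a corepressor and receptor target, rose by 3.06 on the log2 scale with T4 and 4.68 in DMSO and overlaps HRURF. The semaphorin gene SEMA6B had courses of -2.24 with T4 and -0.85 in DMSO.

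**Figure D4:**
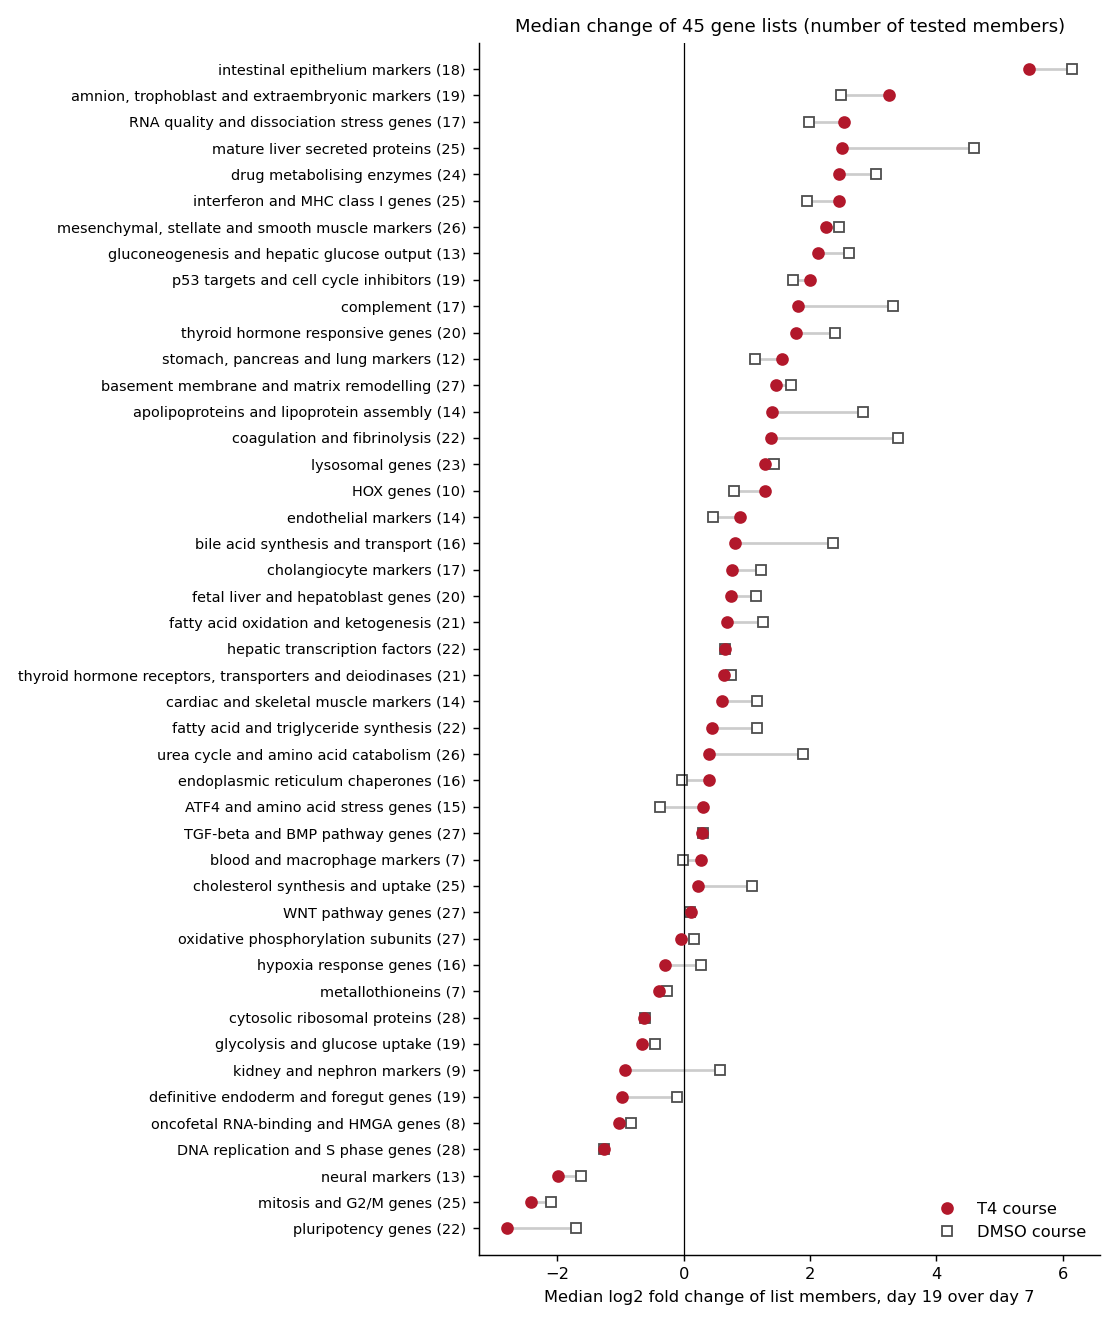
Median log2 fold change of day 19 over day 7 for the tested members of 45 gene lists in the T4 course (filled circles) and the DMSO course (open squares), with the number of members in parentheses. Pluripotency and mitosis lists lie lowest and intestinal and amnion or trophoblast lists highest in the T4 course, and the secreted protein, coagulation, complement, bile acid and urea cycle lists have medians far lower than in DMSO.

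Genes of other cell types rose along the course as well, and their part in the values above was not tested. Intestinal epithelium genes rose in 16 of 18 cases and the other 2 were not called, at a median log2 fold change of 5.47 with T4 (5.20 with members at 0 at their bound) and 6.15 in DMSO, and 5 had a lower value in the T4 course. Their summed level was 5909 and 6392 CPM at day 19 with T4, 91.2 and 89.7 at day 7 with T4, 25601 and 27164 at day 19 in DMSO and 101 and 101 at day 7 in DMSO, most of it APOA4 at day 19. CDX2, the intestinal master regulator, rose to 85.8 and 91.5 CPM with T4, against 18 and 16.7 CPM at day 7, and CDH17, liver-intestine cadherin, to 55.5 and 66.7 CPM, against 0.344 and 0.39 CPM. VIL1, of the brush border, rose by 0.82 on the log2 scale with T4 and by 2.81 in DMSO. MUC2, the mucin of goblet cells, did not reach the count filter.

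Amnion, trophoblast and extraembryonic genes rose in 17 of 19 cases and fell in 2, at a median log2 fold change of 3.25 with T4 and 2.49 in DMSO, and 11 had a higher and 1 a lower value in the T4 course. The 1 lower difference was not called without the first T4 library of day 19, without any 1 library of day 7 with T4 or DMSO or without scaling factors. Their summed level was 6534 and 6256 CPM at day 19 with T4 and 958 and 949 at day 7, against 3718 and 3509 at day 19 and 941 and 935 at day 7 in DMSO. CGA, the alpha chain of chorionic gonadotropin and thyrotropin, rose to 946 and 934 CPM with T4, against 0.737 and 0.439 CPM at day 7 (log2 fold change 10.63). In DMSO CGA rose to 314 and 323 CPM, and the difference of 1.13 was not called (adjusted p = 0.107), though called without scaling factors (1.28, adjusted p = 0.047). CGB8, a beta chain of chorionic gonadotropin with near-identical copies, was at 156 and 168 CPM at day 19 with T4 and 51.1 and 56.5 CPM in DMSO. IGFBP3, the main carrier of insulin-like growth factors, rose to 1666 and 1613 CPM with T4, against 53.3 and 55 CPM at day 7 (difference from DMSO 0.99, adjusted p = 3.46e-07). The integrin gene ITGB6 had courses of 9.20 with T4 and 9.48 in DMSO. KRT7, shared with the bile duct list, had courses of 3.25 and 2.33. CGA, CGB8 and IGFBP3 were higher in both day 19 libraries with T4 than in both with DMSO.

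Bile duct markers rose in 13 of 17 cases and fell in 2 (median log2 fold change 0.77, against 1.22 in DMSO). SPP1, osteopontin, rose to 829.6 and 741 CPM with T4, against 3.54 and 3.85 CPM at day 7, and to 124 and 133 CPM in DMSO (difference 1.58, adjusted p = 6.69e-05). KRT19 was at 1367 and 1242 CPM at day 19 with T4 and 1428 and 1374 CPM at day 7, not called (adjusted p = 0.127), though called without the first T4 library of day 19 (-0.17, adjusted p = 0.0224). CLDN4, of tight junctions, had courses of 1.65 with T4 and 1.38 in DMSO, the annexin gene ANXA4 courses of 0.77 and 2.06, and CD24 courses of -0.67 and -1.44. Mesenchymal, stellate and smooth muscle genes rose in 20 of 26 cases and fell in 5 (median log2 fold change 2.25, against 2.46 in DMSO). Their summed level was 20518 and 22278 CPM at day 19 with T4 and 6749 and 6574 at day 7. The type I collagen gene COL1A1 rose to 992 and 1009 CPM with T4, against 109.6 and 102 CPM at day 7, and to 2443 and 2339.8 CPM in DMSO (difference -1.19, adjusted p = 2.18e-06). COL1A2, the other chain of type I collagen, rose by 2.37 on the log2 scale with T4 and 3.13 in DMSO. The proteoglycan gene LUM rose by 6.53 on the log2 scale and ACTA2, smooth muscle actin, which overlaps FAS, by 4.18, whereas the crosslinking enzyme LOX rose by 1.77 with T4 and 4.83 in DMSO. VIM fell to 176 and 192 CPM with T4, against 259 and 257 CPM at day 7.

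Of 27 basement membrane and matrix remodelling genes 24 rose and 3 fell (median log2 fold change 1.46, against 1.70 in DMSO). TIMP3, an inhibitor of metalloproteases within SYN3, rose to 1708 and 1551 CPM with T4, against 15.4 and 15.8 CPM at day 7, and to 454 and 413 CPM in DMSO (difference 2.13, adjusted p = 1.6e-07). TIMP2 rose by 3.29 on the log2 scale with T4. LAMB3, a chain of laminin 332, rose by less with T4, to 28 and 32.3 CPM at day 19, against 3.78 and 4.29 CPM at day 7. In DMSO LAMB3 was at 306 and 305 CPM at day 19 and 4.62 and 3.94 CPM at day 7 (difference -3.26). Endothelial genes rose in 9 of 14 cases and fell in 2 (median log2 fold change 0.89, against 0.47 in DMSO). ENG, a TGF-beta coreceptor, rose to 254 and 253 CPM with T4, against 7.86 and 7.66 CPM at day 7, and CDH5 to 42.2 and 49.1 CPM, against 8.11 and 7.61 CPM, both by more than in DMSO (differences 1.67 and 1.96). FLT1, a receptor for VEGF, had courses of 1.34 with T4 and 1.70 in DMSO.

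Blood and macrophage genes were mostly too low to test: of 7 tested 3 rose and 2 fell (median log2 fold change 0.27, against -0.02 in DMSO). This median was 0.149 without the second T4 library of day 19, 0.534 and 0.0459 without the first and second of day 7 and 0.026 without scaling factors. The 2 that fell became 1 without either T4 library of day 19 or the second of day 7. The leukocyte gene PTPRC and globin genes did not pass the filter. CD68, also a lysosomal protein, rose by 2.41 on the log2 scale with T4 and 4.001 in DMSO. The macrophage receptor gene CD163 fell to 2.85 and 2.5 CPM with T4, against 8.06 and 7.95 CPM at day 7. The blood factor gene RUNX1 rose by 2.41 on the log2 scale. Of 13 neural genes 7 fell and 4 rose (median log2 fold change -1.99, against -1.63 in DMSO). OTX2 of the forebrain fell to 2.97 and 4.04 CPM with T4, against 59 and 58.8 CPM at day 7. STMN2, a neuronal growth protein, had courses of 3.51 and 2.82. The tubulin gene TUBB3 and the microtubule gene MAP2 were higher at day 19 with T4 and lower at day 19 in DMSO. Their courses were 0.24 with T4 and -1.30 in DMSO for TUBB3, and 1.12 and -1.63 for MAP2. The T4 course of TUBB3 was -0.01 without scaling factors, 0.18 without the first T4 library of day 19 (adjusted p = 0.0789) and 0.21 without the second of day 7 (adjusted p = 0.0656). Cardiac and skeletal muscle genes rose in 6 of 14 cases and fell in 6 (median log2 fold change 0.61, against 1.17 in DMSO). Without the second T4 library of day 19 this median was 0.129, and without scaling factors 0.365. The genes that rose were led by the natriuretic peptide gene NPPB at 3.25. MYL4 of atrial muscle had a T4 course of 1.83 and the troponin gene TNNI3 one of -2.95, with TNNC1 and RYR2 in opposite courses of -0.82 and 0.75, and -1.10 and 1.15. Kidney genes rose in 2 of 9 cases and fell in 4 (median log2 fold change -0.92, against 0.57 in DMSO). CUBN, an endocytic receptor, had courses of -0.92 and 0.72, and its partner LRP2 courses of -0.38 and 0.17. The T4 course of LRP2 was -0.18 without the first T4 library of day 19 (adjusted p = 0.19), -0.61 without the second, and not called without the first T4 library of day 7 (-0.36, adjusted p = 0.054). WT1 and OSR1 of the early kidney had T4 courses of 2.73 and 1.45, with levels of 0.799 and 1.88 CPM for WT1 and 2.17 and 1.99 CPM for OSR1 at day 19. Stomach, pancreas and lung genes rose in 6 of 12 cases and fell in 2 (1 without either T4 library of day 19; median log2 fold change 1.56, against 1.13 in DMSO). CLDN18, a gastric claudin, was at 118 and 140.4 CPM at day 19 with T4 and 4.82 and 3.71 CPM at day 7, above the DMSO course (difference 1.87, adjusted p = 4.35e-05). The pepsinogen gene PGC was at 28.5 and 27.2 CPM at day 19 with T4 and 0 and 0.146 CPM at day 7.

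Signalling genes moved in either direction. WNT pathway genes rose in 12 of 27 cases and fell in 11, at a median log2 fold change of 0.12 (DMSO 0.09) that was -0.12 without scaling factors, with 10 higher and 13 lower at day 19. The ligand WNT5A rose to 123 and 127 CPM with T4, against 5.85 and 5.75 CPM at day 7, and the WNT target SP5 fell to 0.399 and 0.227 CPM, against 16 and 12.9 CPM. The WNT receptor gene FZD7 had a T4 course of -1.44. SFRP2, a secreted WNT antagonist, was at 43.9 and 42.1 CPM at day 19 with T4 and 40.4 and 38.5 CPM at day 7, not called. In DMSO SFRP2 was at 99.2 and 91.1 CPM at day 19 and 14.9 and 13.8 CPM at day 7. The related SFRP5 had opposite courses of -0.78 with T4 and 1.82 in DMSO. TGF-beta and BMP genes rose in 14 of 27 cases and fell in 11 (median log2 fold change 0.30, against 0.30 in DMSO), and the median with T4 was 0.0498 without scaling factors. TGFBI, a matrix protein induced by TGF-beta, was at 696 and 634 CPM at day 19 with T4 and 14.5 and 13.2 CPM at day 7. CCN2, of matrix signalling, and the activin gene INHBA had T4 courses of 3.87 and 5.73. ID3, a BMP target, moved in opposite courses of 0.54 and -0.19. HOX genes rose in 6 of 10 cases and the other 4 were not called (median log2 fold change 1.28, against 0.80 in DMSO), and 1 was called lower without scaling factors or without the second T4 library of day 19. HOXB2 had courses of 1.39 with T4 and 0.81 in DMSO. HOXA3 reached 3.77 and 4.04 CPM at day 19 with T4.

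The amino acid stress genes controlled by ATF4 mostly had a higher value in the T4 course than in the DMSO course. With T4 11 of 15 rose and 1 fell (median log2 fold change 0.30), against 6 and 9 in DMSO (median log2 fold change -0.37), and 14 of 15 had a higher value in the T4 course. Without scaling factors 7 rose and 4 fell with T4 at a median of 0.0554, and 15 had a higher value. CHAC1, which breaks down glutathione, was at 24.6 and 23 CPM at day 19 with T4 and 27.3 and 24.2 CPM at day 7, not called. In DMSO CHAC1 was at 5.69 and 6.8 CPM at day 19 and 31 and 36.4 CPM at day 7 (difference 2.32, adjusted p = 5.66e-07). PSAT1, of serine synthesis, showed the same, at 77.5 and 72.8 CPM at day 19 and 79.9 and 79.4 CPM at day 7 with T4. In DMSO PSAT1 was at 22.4 and 27.3 CPM at day 19 and 89.7 and 87.3 CPM at day 7. For CHAC1 and PSAT1 the day 19 libraries with T4 were all above those in DMSO. The lipoprotein receptor gene VLDLR rose by 3.14 on the log2 scale with T4. The stress factor gene ATF3 rose by 3.13 on the log2 scale with T4 and 2.11 in DMSO. Endoplasmic reticulum chaperone genes rose in 13 of 16 cases and fell in 1 (median log2 fold change 0.39, against -0.03 in DMSO), and 10 had a higher value in the T4 course. Without scaling factors 8 rose and 3 fell at a median of 0.149, and 14 had a higher value. HERPUD1, of protein disposal from the endoplasmic reticulum, rose to 313 and 320.2 CPM with T4, against 46.6 and 44 CPM at day 7, and to 122 and 121 CPM in DMSO, and HSPA5 (BiP) rose by 0.64 on the log2 scale with T4 and was not called in DMSO (-0.03). DNAJB9 and XBP1 of the same response had T4 courses of 1.54 and 1.21.

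Interferon and MHC class I genes rose in all 25 cases with T4 (median log2 fold change 2.46, against 1.95 in DMSO), and 10 had a higher and 2 a lower value in the T4 course, or 15 and 1 without scaling factors. The peptide transporter TAP1 rose to 113 and 107 CPM, against 7.96 and 7.32 CPM at day 7, and IRF7, a driver of interferon genes, to 35 and 30.7 CPM, against 8.3 and 8.58 CPM (difference 1.75, adjusted p = 7.96e-07). The interferon-induced gene IFI6 had a T4 course of 7.52, and TAP2 and TAPBP, of peptide loading, courses of 3.04 and 2.46. All 23 lysosomal genes rose (median log2 fold change 1.28, against 1.43 in DMSO). The protease genes CTSL and CTSB rose by 3.03 on the log2 scale and 2.39, the ceramidase gene ASAH1 by 2.35 and the lipase gene LIPA by 1.19, against 4.13 in DMSO. Hypoxia genes rose in 7 of 16 cases and fell in 8 (median log2 fold change -0.29, against 0.28 in DMSO). The median with T4 was -0.168 without the first T4 library of day 7 and -0.537 without scaling factors. The DMSO course moves down further in that setting, so the contrast in sign may depend on the scaling. VEGFA, ADM, a vasodilator peptide gene, and NDRG1 had T4 courses of 1.95, 1.98 and 1.70. The collagen hydroxylase gene P4HA1 had one of -1.39, against 0.12 in DMSO. Metallothionein and zinc export genes rose in 2 of 7 cases and fell in 4 (2 without either T4 library of day 7; median log2 fold change -0.40, against -0.27 in DMSO), and the median with T4 was -0.643 without scaling factors, with 1 higher and 5 lower. MT1G and MT1F, which bind zinc and copper, had T4 courses of -0.84 and -1.15, and the zinc exporter gene SLC30A1 one of 0.64. MT1H was at 2 and 1.53 CPM at day 19 with T4 and 3 and 3.07 CPM at day 7.

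Oxidative phosphorylation genes rose in 10 of 27 cases and fell in 12 (median log2 fold change -0.04, against 0.17 in DMSO). Without scaling factors the DMSO course moves down further than the T4 course, so the contrast in sign may depend on the scaling. In that setting 4 rose and 16 fell with T4, at a median of -0.285. Without the first and second T4 library of day 19 the median was -0.062 and 0.026, and without the first of day 7 -0.0141. Of the complex II genes, SDHA had a T4 course of 1.19 and SDHD was not called at 0.04. SDHB rose by 1.04 on the log2 scale with T4 and 1.601 in DMSO. ATP5PO of the ATP synthase had a T4 course of -0.60, and ATP5F1A of the same enzyme had opposite courses of -0.43 and 0.17. The rise of ATP5F1A in DMSO is smaller than the shift without scaling factors, so its opposite direction depends on the scaling. Of 28 cytosolic ribosomal protein genes 27 fell with T4 and the other was not called (median log2 fold change -0.63, against -0.61 in DMSO). RPL3, RPL4, RPL7 and RPS2 had T4 courses of -0.90, -0.85, -0.97 and -0.78. RPS19 was at -0.07, not called, though called without the first T4 library of day 19 (-0.18, adjusted p = 0.0275). The difference between courses was called by edgeR's quasi-likelihood test for 0 of the 28, also 0 at an unadjusted p under 0.05, 0 with DESeq2 and 0 with limma voom. It was called for 4 without scaling factors and 4 without the second T4 library of day 19, each higher with T4, and for 1 without the first, lower with T4. Genes that mark dissociation stress rose in 16 of 17 cases (median log2 fold change 2.53, against 1.99 in DMSO). FOS, an early response gene, was at 41.9 and 39.7 CPM at day 19 with T4 and 3.29 and 3.37 CPM at day 7. JUNB was at 87.8 and 84.2 CPM at day 19 and 4.82 and 5.22 CPM at day 7. The heat shock gene HSPA1B, with a near-identical copy, had a T4 course of 2.91, and the part of such stress in the day 19 values was not tested.

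At the matched dose of 30 nM, the T4 course differed from the T3 course at fewer genes than from the DMSO course. The test of the difference between the T4 and T3 courses called 834 genes (4.61%), 514 with a higher and 320 with a lower value in the T4 course, 61.6% higher, against 49.9% with DESeq2 and 72.5% without scaling factors. The count was 1706 without the second T3 library of day 19, 529 without the first, 466 and 546 without the first and second T4 library of day 19, 291 and 331 without those of T3 at day 7, and 291 and 254 without those of T4 at day 7. A higher value in the T4 course was called for 2.84% of all genes, 11 of 25 secreted protein genes and 6 of 14 apolipoprotein genes. Counts of list members in this comparison were not repeated without 1 library. AFP was at 1686 and 2023 CPM at day 19 with T4 and 430.0 and 642 CPM with T3, against 72.4 and 71.3 CPM at day 7 with T4 and 91.6 and 89.3 CPM with T3 (difference of courses 2.12, 95% interval 1.71 to 2.54, adjusted p = 3.2e-05). PLG was at 8.45 and 9.32 CPM at day 19 with T4 and 1.14 and 2.04 CPM with T3 (difference 2.44, adjusted p = 0.000434). APOA1 was at 2609 and 2775 CPM with T4 and 760.2 and 975 CPM with T3 (difference 1.605). SLC22A7 was at 6.16 and 6.02 CPM with T4 and 1.08 and 1.05 CPM with T3 (difference 2.82). The fall of 14 of 25 mitosis genes was smaller with T4 than with T3. For AFP, PLG, APOA1 and SLC22A7 the day 19 libraries with T4 were all above those with T3, though the share of all genes that do so was not counted.

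For most genes no difference between the T4 and T3 courses was called. POU5F1 had a difference of 0.38 (95% interval 0.01 to 0.76) and CDKN1A of 0.25 (95% interval 0.03 to 0.47). The difference of CEBPA was -0.08 (95% interval -0.28 to 0.12), and that of DIO3 was -0.08 (95% interval -0.42 to 0.26). KLF9 had a difference of -0.39 (95% interval -0.73 to -0.04) and CPS1 of 0.18 (95% interval -0.24 to 0.61). These 6 did not pass the test, which does not show that the courses are alike. TBX3 and GDF15 rose less with T4 than with T3, with differences of -0.76 (adjusted p = 0.00502) and -0.74 (adjusted p = 0.00965). That of GDF15 was not called without the first T3 library of day 7 (-0.68, adjusted p = 0.0611) or the first T4 library of day 7 (-0.70, adjusted p = 0.0657). That of POU5F1 was called without the first T4 library of day 19 (0.65, adjusted p = 0.0439).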

How the data were processed

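Total RNA of 12 libraries was sequenced, and the 4 libraries with T4 were compared by day. Per the submitters' processing notes, the authors used HISAT, Bowtie2 and RSEM with hg38; versions and the role of each are not given in the sources used here. The deposited tables give an expected count and an FPKM value for each RefSeq transcript, and list transcripts at an FPKM of at least 0.01; others were taken as 0. Expected counts were summed per gene number and rounded to whole numbers, which gave 18363549 to 19306181 counts per library over 23922 genes, of which 23801 matched a RefSeq symbol and 121 did not.

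Genes passing edgeR's count filter (18101) were tested with the quasi-likelihood test of edgeR 4.0.16 (R 4.3.3) in 1 fit of 12 libraries and 6 groups with TMM factors, which left 6 residual degrees of freedom and a common biological coefficient of variation of 5.42%. Intervals are 95% and floors 3 counts, and both cover counting or fitting error of these libraries only. The 2 libraries of a group differed beyond counting noise, with a chi-square per gene of 4.954 for T4 at day 19 and 1.623 for T4 at day 7. On simulated counts for 17621 genes, 50 genes with ample counts were changed for each size of change, in T4 at day 19 alone. Changes of 2-fold were recovered for 100% of them in the T4 course and 94% in the difference between courses. For 1.5-fold changes these shares were 90% and 58%, and 12 unchanged genes were called in each comparison. The simulation gave all genes and days the same spread and left most genes unchanged, unlike these data. It does not give the power for genes with few counts.

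Genes were named by a rule: the 10 highest and 10 lowest called T4 courses and the 8 highest and 8 lowest called differences from DMSO, with a mean of at least 10 CPM in a group and no overlap of libraries and without uncharacterised, microRNA, small nucleolar and antisense names, then the 3 smallest p in the T4 course and the 2 smallest in the difference for each of 45 lists, and a set of liver, stem cell and thyroid genes. The members, lists and this set were chosen with earlier results of these data known. Some genes that the rule chose are not reported here. Alternatives were relative log expression factors, no scaling factors, no filter, leaving out the 10 most abundant genes, the libraries of T4 alone or of T4 and DMSO alone, DESeq2 1.42.0, limma 3.58.1 voom with a variance per day, limma on log2 of FPKM plus 0.1, a replicate block and each library left out. Replicate numbers do not pair libraries by the labels, and the deviations of same-numbered T4 libraries of day 19 and day 7 had a correlation across genes of 0.007. Promoters came from RefSeq (GRCh38.p14). Tables and figures were made with Python 3.11.15, pandas 2.3.3, numpy 2.4.6 and matplotlib 3.10.9.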

Additional observations from a re-analysis of the deposited data

Results flagged for a closer look

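Each result here is a change along differentiation that differed between T4 and another condition in a test of the difference itself, edgeR's quasi-likelihood test with Benjamini-Hochberg adjustment. Between the T4 and DMSO courses 5018 of 18101 genes passed (27.7%), and between the T4 and T3 courses 834 (4.61%). All values below are log2 fold changes with T4 minus those in DMSO.

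The 16 ranked genes had the differences 5.75 for SST, 4.99 for CHI3L1, 4.41 for NUPR1, 4.34 for NPB, 3.97 for PLAAT4, 3.61 for CGB8, 3.57 for SMOC1 and 3.33 for SERPINB12 on the higher side, and -13.20 for SULT1A3, -7.40 for RN7SL1, -7.14 for RN7SL2, -5.79 for AHSG, -5.32 for PLG, -5.05 for C6, -4.65 for SLC22A7 and -4.12 for GLYAT on the lower side. SST at day 7 with T4 and SULT1A3 at day 7 in DMSO were at 0 in both libraries, and C6 at day 7 in DMSO was at or near 0, so their fitted values depend on the prior count and are no bounds. Some of these differences changed in call or size without 1 library. The difference of SST was not called without the first T4 library of day 7 (adjusted p = 0.0645), the second (adjusted p = 0.0646) or the first DMSO library of day 7 (adjusted p = 0.226). Without the second T4 library of day 7 the difference was 8.95 for CHI3L1 and 8.53 for CGB8, and that of GLYAT was not called (adjusted p = 0.166). Without the second T4 library of day 19 that of SULT1A3 was -19.82. The values of PLAAT4, RN7SL1 and RN7SL2 without a library are given above.

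Opposite courses, both called, were found for 14 named genes. Many of these genes were named for their difference between courses, so their number and split are no result. Of all 6801 genes called higher in DMSO, 266 (3.91%) were called lower with T4. Of all 6311 called lower in DMSO, 132 (2.09%) were called higher with T4. TBX3 was at 0.86 with T4 and -1.03 in DMSO, a difference of 1.89, TUBB3 was at 0.24 with T4 and -1.30 in DMSO, a difference of 1.54, MAP2 was at 1.12 with T4 and -1.63 in DMSO, a difference of 2.74, and ID3 was at 0.54 with T4 and -0.19 in DMSO, a difference of 0.73. The other 10 had a negative T4 course and a positive DMSO course, with differences of -2.85 for AGT, -1.78 for CRIPTO, -1.83 for ASS1, -2.40 for ALDOC, -4.39 for ABCG8, -1.56 for TNNC1, -2.25 for RYR2, -1.64 for CUBN, -2.61 for SFRP5 and -0.60 for ATP5F1A. For ATP5F1A and TUBB3 the opposite direction depends on the scaling of libraries, as given above.

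Of the liver, stem cell, proliferation and thyroid hormone genes named for all comparisons, 19 more passed the test. The value was higher in the T4 course by 0.53 for LIN28A, 0.54 for CDKN1A and 0.97 for DIO3. It was lower in the T4 course for the others, at -1.21 for POU5F1, -2.81 for SERPINA1, -3.31 for AFP, -1.70 for TTR, -2.34 for APOA1, -3.73 for CPS1, -0.49 for THRB, -1.19 for COL1A1, -1.57 for ALB, -1.03 for HNF4A, -0.40 for GATA4, -2.24 for NANOG, -0.41 for VIM, -0.51 for CDX2, -0.84 for THRA and -1.62 for HR. Without a library the difference was not called for GATA4 (without the first T4 library of day 19, adjusted p = 0.0599), nor for THRB without the first T4 library of day 7 (adjusted p = 0.091) or the first DMSO library of day 7 (adjusted p = 0.087). For VIM the adjusted p was 0.123 and 0.122 without the first T4 or the second DMSO library of day 19 and 0.0796 to 0.0963 without any 1 library of day 7 with T4 or DMSO. For CDX2 it was 0.0816 without the first T4 library of day 19 and 0.0517 to 0.112 without any 1 of those of day 7.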

How the results depend on the processing

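The T4 course had 11666 to 13538 calls under the alternatives run on all its libraries, against 13015, and 11867 to 12188 without 1 library; 11578 to 12966 and 11703 to 11850 of these were among the 13015 in the same direction. The difference from the DMSO course had 3790 to 5751 calls, against 5018, and 3812 to 4768 without 1 library, of which 3745 to 4991 and 3749 to 4244 were shared in the same direction. Fewest calls of the T4 course were shared with limma on FPKM. The share of DMSO course calls made the same way with T4 was 75.9 to 83.5% without 1 library, against 81.4%. The difference from the T3 course, 834 genes, was the least stable count, at 653 to 880 under the other alternatives and 254 to 1706 without 1 library; the cause was not tested. Fitted with the replicate block, the counts were 13008, 4965 and 805, and since the numbers do not pair libraries this fit bears on no result. Of 220 named genes, 204 were called in the T4 course and 199 of them kept call and direction in every alternative run. For the difference from DMSO these numbers were 153 and 123, and for 12 genes compared with T3 they were 6 and 5.

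Directions turned in the T4 course without scaling factors and with limma on FPKM for PYGL (-0.17 and -0.16), DHCR7 (-0.081 and -0.079), TUBB3 (-0.0079 and -0.0058) and SDHD (-0.20 and -0.20), for PROS1 (-0.13 and -0.13), HADH (-0.071 and -0.072) and SFRP2 (-0.12 and -0.12), which were not called in either setting or with scaling, and for the medians of the cholesterol list (-0.0174 and -0.0145) and the WNT list (-0.124 and -0.121), where these settings move all genes downward. With limma on FPKM, whose list counts are otherwise close to those without scaling factors, the median of the coagulation list was 0.762, of the liver factors 0.307, of the bile acid list 0.413, of muscle genes 0.179 and of the stomach, pancreas and lung list 0.856, and in the intestinal list 11 differences were lower and 2 higher, against 5 and 0; the cause was not tested. Fitted on the 4 libraries of T4 alone, which test fewer genes, the median was 2.17 for apolipoproteins, -1.23 for neural genes and 0.86 for the stomach, pancreas and lung list. The oxidative phosphorylation median was -0.062 to 0.026 without 1 library. The difference of MEP1A from DMSO was -1.86 with limma on FPKM; the cause was not tested. Genes under about 1 CPM, such as CYP3A4, rest on few counts, so small changes in them were not detectable at this depth. With 2 libraries a group, no result separates culture from library.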
